A study of Mus musculus with 16 samples.

Results

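The transcriptomes of 8 organotypic slices of the mouse suprachiasmatic nucleus (SCN), the hypothalamic site of the master circadian clock, were compared: 4 CT12 Veh slices against 4 CT10 slices, out of 16 slices arrayed in the series. The arrays were chosen by their labels alone, and no measured value entered the choice. CT12 Veh slices had been treated at CT10 with vehicle, the air medium used for recording, and were harvested 2 h later. CT10 slices were untreated and harvested at CT10. All slices came from C57BL/6J mice aged P8-P11 and were kept for 7 days in culture before transfer to medium with luciferin, so both groups share the explant, the culture and the strain. The other slices were CT12 VIP and CT16 VIP, given vasoactive intestinal peptide at CT10. Because CT12 Veh slices differ from CT10 slices both in the handling that came with vehicle and in 2 h of circadian time, these cannot be told apart here, and no untreated CT12 slices were analysed. Whether each slice of a group had its own donor animal is not in the labels, so p-values measure the spread between these slices, which may be technical.

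SCN cells keep time through a transcriptional loop in which CLOCK and BMAL1 (Arntl) act on E-box sequences to drive the Per and Cry repressors, with REV-ERB and ROR receptors and PAR bZIP factors as further arms. Light and neuropeptides reach this loop through cyclic AMP, calcium and ERK kinase signalling, which acts on cyclic AMP response elements (CREs) and on serum response factor, and which switches on immediate early genes such as Fos and Egr1 within minutes.

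Levels are given as normalised log2 signal on Illumina mouse arrays, so that a difference of 1 is a doubling. The 8 arrays detected between 8844 and 14681 probes at a detection p under 0.01. CT12 Veh arrays detected 12103.2 ± 2264.1 probes and CT10 arrays 11965.5 ± 2001.9 (SD, 4 arrays each, exact permutation test, two-sided, p = 0.886, smallest possible 0.0286). Correlation between arrays averaged 0.9494 within CT12 Veh, 0.9437 within CT10 and 0.9446 between the groups, so arrays of different groups were about as alike as arrays of one group. GABA neuron genes (Gad1, Gad2, Slc32a1) and the SCN peptides Avp and Vip were detected on all 8 arrays. Of the SCN transcription factors, Six3 and Lhx1 were each detected on 3 CT12 Veh and 4 CT10 arrays, but Six6 on none of the CT12 Veh arrays and 1 of the CT10 arrays. Vip level differed widely within the groups, at 7.40, 8.74, 9.56 and 9.29 on the CT12 Veh arrays and 9.19, 9.33, 8.13 and 8.94 on the CT10 arrays. Vip and Lhx1 were both lowest on CT12 Veh 1, the array that also detected the fewest probes.

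No transcript passed the test between CT12 Veh and CT10 slices. Of 16847 probes detected on at least 1 of the 8 arrays, 0 had a Benjamini-Hochberg adjusted p under 0.05 in limma, and the lowest adjusted p was 0.525. At an unadjusted p under 0.05 there were 1130 probes (6.71%), of which 568 were higher (3.37%) and 562 lower (3.34%) in CT12 Veh. Over 9348 named genes, each read by its probe of highest mean signal, 623 (6.66%) had an unadjusted p under 0.05, with 322 higher (3.44%) and 301 lower (3.22%). The groups of arrays did not overlap for 396 genes (4.24%), 200 higher (2.14%) and 196 lower (2.1%). The median difference over the named genes was -0.01, and only 12 probes (0.0712%) differed by over 1 in size. The median SE of a difference was 0.18 and the median 95% interval reached 0.39 to either side. That interval is for a single probe, without adjustment for the number of probes. The adjusted test was stricter, and differences well above that size did not pass it with 4 arrays a group. Examples are Rasl11b at -1.25 and Clk2 at -0.77, each at an adjusted p of 0.525 in limma. The genes below are therefore described by their levels, and a named gene was not shown to differ between the groups unless a passing test is given.

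Immediate early genes, the first transcripts made after a stimulus, had the highest median difference of the 34 gene lists examined. Of 35 genes in the list, 19 were tested and 16 were not detected on any of the 8 arrays or had no named probe. Of the 19, 18 had a positive difference, 11 were higher in CT12 Veh at an unadjusted p under 0.05 against a background of 3.44% of genes, 0 were lower, and 0 passed the adjusted test. The median difference of the list was 0.43, against -0.01 over all genes. The groups did not overlap for 5 genes, all higher in CT12 Veh: Fosl2, Egr2, Srf, Ier3 and Klf6, against a background of 2.14%. Klf6 was separated narrowly, with 9.62 on the lowest CT12 Veh array and 9.59 on the highest CT10 array. Its difference was 0.25 (unadjusted p 0.1 in limma), so that it is not among the 11. Of the 11 genes higher at an unadjusted p under 0.05, Egr3 and Gadd45b were not detected on any CT10 array and on 1 CT12 Veh array each, so that their differences rest on signal near background.

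Fosl2, which encodes the AP-1 subunit FRA2, had a level of 7.85, 8.26, 7.999 and 7.16 on the CT12 Veh arrays, against 6.50, 6.98, 6.96 and 6.82 on the CT10 arrays. Every CT12 Veh array lay above every CT10 array, with CT12 Veh 4 the closest to them. The difference was 1.00 (SE 0.22, 95% interval 0.51 to 1.49, a fold of 2.00, unadjusted p 0.000899, adjusted p 0.672). Egr2, a zinc finger transcription factor, had a level of 7.59, 8.36, 6.68 and 6.43 on the CT12 Veh arrays, against 6.17, 5.82, 5.36 and 5.41 on the CT10 arrays. It was detected on all 4 CT12 Veh arrays but on 1 CT10 array, and its groups did not overlap. Because CT10 signal was mostly near background, no fold is given. The measured difference was 1.58 (SE 0.37, adjusted p 0.681), and it lay between 1.19 and 1.84 when 1 array at a time was left out.

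**Figure D1:**
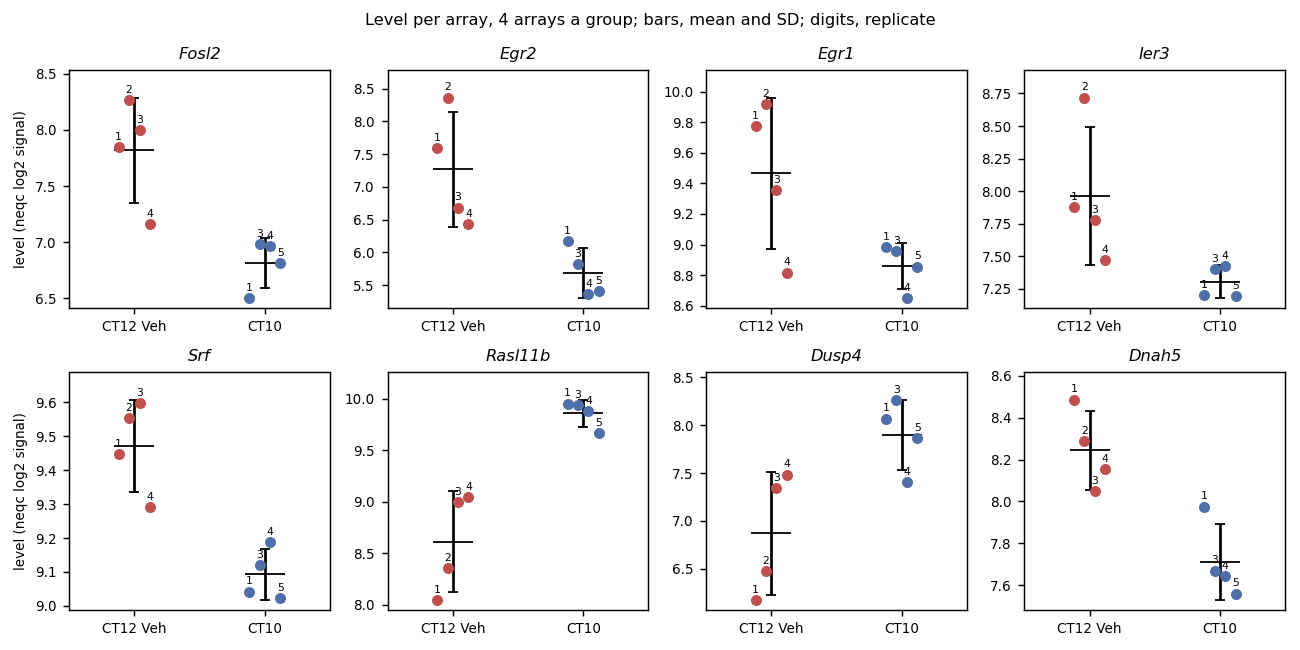
Level (normalised log2 signal, y axis) of 8 genes on each of the 4 CT12 Veh arrays (left in each panel) and the 4 CT10 arrays (right), with the replicate number beside each point, and the mean and SD as bars. Fosl2 and Egr2 on the CT12 Veh arrays lie above all CT10 arrays, Rasl11b on the CT12 Veh arrays lies below them, and Egr1 on CT12 Veh 4 (8.82) lies among the CT10 arrays.

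Srf, serum response factor itself, had a level of 9.45, 9.55, 9.60 and 9.29 on the CT12 Veh arrays, against 9.04, 9.12, 9.19 and 9.02 on the CT10 arrays. The difference was small and tight, at 0.38 (SE 0.13, unadjusted p 0.0146, adjusted p 0.714). Ier3, an early response gene linked to cell survival, had a level of 7.88, 8.72, 7.78 and 7.47 on the CT12 Veh arrays, against 7.20, 7.40, 7.43 and 7.20 on the CT10 arrays. Its difference was 0.66 (SE 0.23, adjusted p 0.715), and CT12 Veh 2 stood highest.

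The best known members were less evenly placed. Fos, the founding AP-1 gene, had a level of 6.25, 7.67, 6.71 and 6.26 on the CT12 Veh arrays, against 6.08, 5.76, 6.09 and 6.36 on the CT10 arrays. Fos was detected on 3 CT12 Veh arrays and 1 CT10 array, so that its CT10 signal was mostly near background. The groups overlapped, and the difference of 0.65 (SE 0.29, adjusted p 0.741) became 0.33 without CT12 Veh 2. Egr1, an ERK-responsive zinc finger factor, had a level of 9.77, 9.92, 9.35 and 8.82 on the CT12 Veh arrays, against 8.98, 8.96, 8.65 and 8.86 on the CT10 arrays, with a difference of 0.60 (SE 0.22, adjusted p 0.715). CT12 Veh 4 lay inside the CT10 range. Nfkbiz, an NF-kappaB cofactor, differed by 0.64, Ier5 by 0.43 and the stress-sensor gene Gadd45g by 0.35, each at an unadjusted p under 0.05, and both tested probes of Gadd45g had an unadjusted p under 0.05 in the same direction. Arc, the activity-regulated synaptic gene, differed by 0.37, Jun by 0.23, Btg2 by 0.18, Homer1 by 0.01 and Npas4, a neuronal activity factor, by -0.06, none at an unadjusted p under 0.05.

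The list mean was spread more widely among CT12 Veh slices than among CT10 slices, a difference in spread that was not tested. The mean level of the 19 genes was 7.53, 7.94, 7.43 and 7.10 on the CT12 Veh arrays (SD 0.347), against 6.99, 7.04, 7.04 and 6.94 on the CT10 arrays (SD 0.047). The CT10 arrays thus lay close together, below all CT12 Veh arrays, and CT12 Veh 4 lay nearest to them while CT12 Veh 2 lay farthest. The count of 11 genes became 6 of 17 without CT12 Veh 2, against 2.62% of all probes in that fit, and was 7 without CT10 1 or without CT10 4, against 4.66% and 3.05%.

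**Figure D2:**
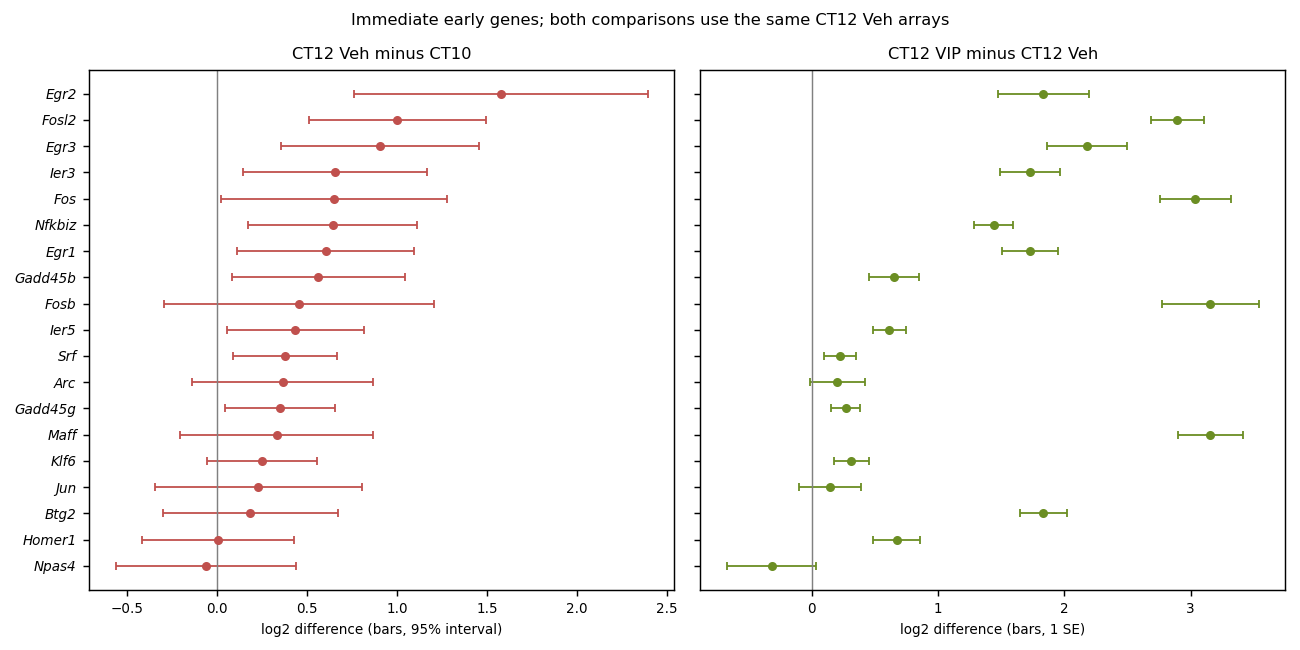
Log2 difference (x axis) of the 19 immediate early genes tested, CT12 Veh minus CT10 with its 95% interval (left) and CT12 VIP minus CT12 Veh with 1 SE (right), where both panels use the same CT12 Veh arrays. In the left panel 18 of the 19 points lie above 0, with Fosl2 at 1.00, and in the right panel Fosl2 lies at 2.90.

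For scale, the same genes were read in CT12 VIP slices against CT12 Veh slices, a comparison that shares the CT12 Veh arrays, so that a high CT12 Veh level raises one difference and lowers the other. There 11 of the 19 genes passed an adjusted p under 0.05, all higher in CT12 VIP, while over all probes 2.77% passed in either direction and 2.11% as higher, and the median difference was 1.44. Fosl2 was 2.90 higher in CT12 VIP than in CT12 Veh (adjusted p 3.76e-05), beside a difference of 1.00 between CT12 Veh and CT10. Btg2, an antiproliferative early gene, was 1.84 higher in CT12 VIP than in CT12 Veh (adjusted p 0.000321), beside 0.18 between CT12 Veh and CT10. Srf differed by 0.22 between CT12 VIP and CT12 Veh (adjusted p 0.484) and by 0.38 between CT12 Veh and CT10.

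Srf, Fos and Egr2 are immediate early genes that differ in which stimulus-response letters they carry in the 250 bases searched. Rasl11b is the transcript that passed in 2 alternative processings. The promoters of these genes are therefore shown. Each is the 250 bases before the RefSeq start in GRCm38.p6, 5′ to 3′ on the gene's own strand: Srf at chr17:46556163-46556412 on the minus strand, and on the plus strand Fos at chr12:85473640-85473889, Egr2 at chr10:67535249-67535498 (1 of 5 starts in the table) and Rasl11b at chr5:74195076-74195325. Capitals mark the CRE motif TGACG or its reverse complement, the E-box CACGTG, which reads the same on both strands, and the CArG box bound by serum response factor, a motif added after the values were seen.
Srf: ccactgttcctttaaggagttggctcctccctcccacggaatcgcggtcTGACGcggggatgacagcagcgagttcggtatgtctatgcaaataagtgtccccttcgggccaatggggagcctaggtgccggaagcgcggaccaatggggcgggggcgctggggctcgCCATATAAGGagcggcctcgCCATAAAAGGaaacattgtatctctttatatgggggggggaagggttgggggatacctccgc
Fos: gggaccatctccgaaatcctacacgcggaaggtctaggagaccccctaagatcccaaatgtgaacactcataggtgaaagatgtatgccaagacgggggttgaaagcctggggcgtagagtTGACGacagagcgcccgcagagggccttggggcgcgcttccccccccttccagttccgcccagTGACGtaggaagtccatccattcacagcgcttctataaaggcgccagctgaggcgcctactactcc
Egr2: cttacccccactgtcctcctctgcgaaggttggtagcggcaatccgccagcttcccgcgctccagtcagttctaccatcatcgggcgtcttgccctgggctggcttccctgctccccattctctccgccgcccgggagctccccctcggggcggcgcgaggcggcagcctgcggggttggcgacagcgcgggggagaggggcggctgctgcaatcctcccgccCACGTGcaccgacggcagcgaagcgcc
Rasl11b: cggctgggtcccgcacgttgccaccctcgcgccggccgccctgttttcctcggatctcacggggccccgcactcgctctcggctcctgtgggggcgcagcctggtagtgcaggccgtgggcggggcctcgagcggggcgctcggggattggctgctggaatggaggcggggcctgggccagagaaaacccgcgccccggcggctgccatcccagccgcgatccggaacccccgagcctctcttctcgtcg
Srf held 1 CRE motif and 2 CArG boxes, Fos held 2 CRE motifs, Egr2 held 1 E-box, and Rasl11b held none of these. Promoters were available for 15 of the 19 immediate early genes tested, and not for Egr1, Egr3, Arc and Nfkbiz. Of the 15, 6 held the CRE motif (40.0%), against 28.1% of the promoters of genes tested and 17.9% of all promoters. The E-box was in 4 of 15 (26.7%), against 8.3% of genes tested and 6.05% of all. The CArG box was in 1 of 15 (6.67%), against 1.14% of genes tested and 1.4% of all. These are matches of letters only, and Fosl2, Ier3 and Jun held none of the 3 motifs in this window. Sequence outside the window was not searched.

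Rasl11b, which encodes a Ras-like small GTPase, was the single transcript that passed in any alternative processing. Its level was 8.05, 8.35, 8.998 and 9.05 on the CT12 Veh arrays, against 9.95, 9.94, 9.88 and 9.67 on the CT10 arrays, and all 4 CT12 Veh arrays lay below all CT10 arrays. The difference was -1.25 (SE 0.22, 95% interval -1.73 to -0.76, a fold of 0.421, unadjusted p 0.00014, adjusted p 0.525), and its other probe gave -1.04. In the authors' normalised values the difference was -0.98 (SE 0.12, adjusted p 0.0171), and with log2 quantile values without background correction it was -1.09 (SE 0.16, adjusted p 0.0366). It stayed between -1.39 and -1.06 when 1 array at a time was left out. In CT12 VIP against CT12 Veh it differed by 0.66 (adjusted p 0.223).

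Dusp4, a nuclear phosphatase that removes activating phosphates from MAP kinases, had a level of 6.17, 6.48, 7.35 and 7.48 on the CT12 Veh arrays, against 8.07, 8.26, 7.41 and 7.87 on the CT10 arrays. CT12 Veh 1 and CT12 Veh 2 were lowest, and CT12 Veh 4 overlapped CT10 4. The difference was -1.03 (SE 0.30, unadjusted p 0.00504, adjusted p 0.681), while the other 2 probes gave -0.51 and -0.22. Of 8 phosphatases of its family tested, 1 (Dusp4) was lower and 0 higher at an unadjusted p under 0.05, against 3.22% and 3.44% of all genes. Dusp6 was at -0.26 and Dusp1 at 0.24. Of 11 ERK feedback genes, 1 was lower and 0 higher at an unadjusted p under 0.05, against the same shares of 3.22% and 3.44%. The lower gene was Ccnd1, cyclin D1, at -0.43, with its other probe at -0.42.

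No difference in clock genes was detected between CT12 Veh and CT10 slices, within wide limits. Of 20 genes in 4 clock lists, 14 were tested, 0 were higher and 1 was lower at an unadjusted p under 0.05, against 3.44% and 3.22% of all genes, and all 14 overlapped between groups, where 4.24% of all genes did not, so that these counts are near the background. The differences were negative for 10 of 14, with a median of -0.11. All 14 95% intervals lay within 1 to either side of 0, but only 3 of them within 0.5, so that changes over 0.5 in size were not excluded for the others. Per2, a core repressor, had a level of 7.70, 7.85, 8.01 and 8.17 on the CT12 Veh arrays, against 8.21, 8.42, 7.40 and 7.99 on the CT10 arrays. Its groups overlapped throughout, at a difference of -0.07 (95% interval -0.54 to 0.40).

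**Figure D3:**
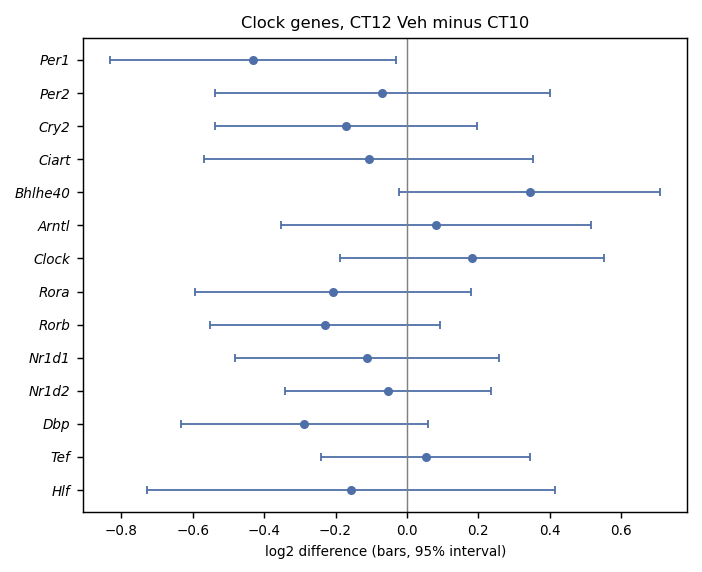
Log2 difference, CT12 Veh minus CT10 (x axis), with 95% interval, for the 14 clock genes tested, ordered by list: repressors, activators, receptors, then PAR bZIP factors. All intervals include 0 except that of Per1, whose upper end is -0.03, and none reaches beyond 1.

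Per1, the other Per repressor measured, had a level of 5.81, 5.42, 5.22 and 5.64 on the CT12 Veh arrays, against 5.99, 5.59, 5.96 and 6.27 on the CT10 arrays. It was not well above background on any CT12 Veh array and was detected on 1 CT10 array, so its difference of -0.43 (unadjusted p 0.0376, adjusted p 0.739) rests on signal near background. Dbp, a PAR bZIP output factor, differed by -0.29 (95% interval -0.63 to 0.06). Bhlhe40, a repressor that also answers acute stimuli, had a level of 8.80, 9.27, 8.81 and 8.59 on the CT12 Veh arrays, against 8.36, 8.70, 8.49 and 8.55 on the CT10 arrays, a difference of 0.34 (95% interval -0.02 to 0.71). The activators Clock and Arntl differed by 0.18 and 0.08, the receptors Rora, Rorb, Nr1d1 and Nr1d2 by -0.21, -0.23, -0.11 and -0.05, and Cry2, Ciart, Tef and Hlf by -0.17, -0.11, 0.05 and -0.16. Without CT12 Veh 1 the median of the 14 was -0.0042. Of 7 clock kinases and ligases, 1 was lower and 0 higher at an unadjusted p under 0.05, against 3.22% and 3.44% of all genes. This was Fbxl21, a ubiquitin ligase subunit that acts on cryptochromes. Its level was 6.36, 6.15, 6.22 and 6.28 on the CT12 Veh arrays, against 6.66, 6.55, 6.66 and 6.54 on the CT10 arrays. The groups did not overlap, as for 2.1% of all genes in that direction. The difference was -0.35 (SE 0.12, adjusted p 0.715), and the other probe gave -0.35 (unadjusted p 0.118 in limma). Fbxl21 was detected on 3 CT12 Veh and 4 CT10 arrays.

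Chemokine and cytokine genes had a median difference of 0.38 over 11 genes tested. At an unadjusted p under 0.05, 4 were higher (Ccl7, Ccl2, Cxcl1 and Ccl4), against 3.44% of all genes, and 1 was lower (Cxcl14), against 3.22%. Ccl7, a monocyte attractant, had a level of 7.31, 8.15, 4.95 and 4.97 on the CT12 Veh arrays, against 4.76, 4.95, 4.86 and 4.76 on the CT10 arrays. It was detected on CT12 Veh 1 and CT12 Veh 2 and on no other of the 8 arrays. On CT12 Veh 3 and CT12 Veh 4 its signal was close to that of the CT10 arrays. Because both groups held arrays with signal near background, no fold is given. The measured difference was 1.51 (SE 0.61, adjusted p 0.721 in limma). Ccl2, its close relative, had a level of 6.08, 7.35, 4.87 and 5.35 on the CT12 Veh arrays, against 4.75, 4.96, 4.75 and 4.93 on the CT10 arrays, and only CT12 Veh 2 detected it. Without CT12 Veh 2, 0 of 9 genes were higher at an unadjusted p under 0.05 in limma, against 2.62% of all probes, and the median was -0.03. Leaving out any CT10 array or CT12 Veh 1 left 1 or 2, against 2.26% to 4.66% of all probes. Without CT10 5 the median was 0.05. Microglial marker levels, a list of 7 genes tested, ranged from 7.21 to 7.55 on the CT12 Veh arrays and from 7.22 to 7.77 on the CT10 arrays, and their part in the chemokine values was not tested.

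Ependymal cells line the ventricle that borders the SCN, and their marker genes had a median difference of 0.38. All 9 genes of the list were tested, 8 were positive, and at an unadjusted p under 0.05 3 were higher and 0 lower, against 3.44% and 3.22% of all genes. Dnah5, a ciliary dynein heavy chain, had a level of 8.49, 8.29, 8.05 and 8.15 on the CT12 Veh arrays, against 7.98, 7.67, 7.64 and 7.56 on the CT10 arrays. Its groups did not overlap, at a difference of 0.53 (SE 0.15, unadjusted p 0.00485, adjusted p 0.681). Tmem212 and the dynein light chain gene Dynlrb2 differed by 0.51 and 0.41, while Foxj1, the master factor of motile cilia, differed by 0.10 and Tekt1, a ciliary tektin, by -0.22. The mean level of the list was 8.25, 8.12, 8.02 and 7.85 on the CT12 Veh arrays, against 8.02, 7.60, 7.99 and 7.44 on the CT10 arrays, and these overlapped. The count was 1 without CT12 Veh 2, without CT10 3 or without CT10 5, where 2.62%, 3.77% and 2.26% of all probes were higher, and the median was 0.21 without CT10 5. In slices, more ependymal cells and more RNA per cell cannot be told apart. Cfap43, another ciliary gene chosen after its values were seen, had both its probes higher at an unadjusted p under 0.05, at 0.86 and 0.47. The probe at 0.86 was detected on 4 CT12 Veh arrays and 1 CT10 array. Its groups overlapped, with CT10 1 (6.81) inside the CT12 Veh range.

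**Figure D4:**
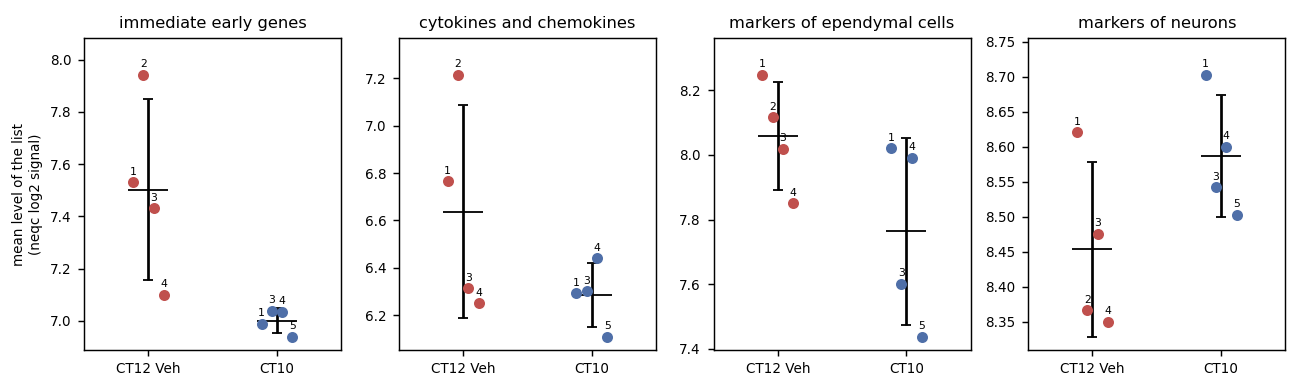
Mean level (normalised log2 signal, y axis) of the tested genes of 4 lists on each CT12 Veh array (left in each panel) and each CT10 array (right), with replicate numbers, mean and SD. Immediate early genes are spread from 7.10 to 7.94 in CT12 Veh and lie within 6.94 to 7.04 in CT10, and cytokines and chemokines are high on CT12 Veh 1 and CT12 Veh 2.

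Markers of neurons, astrocytes, oligodendrocytes and microglia gave few low p-values, where 6.66% of all genes had an unadjusted p under 0.05. Of 13 neuronal, 10 astrocyte and 9 oligodendrocyte genes tested, 0 had an unadjusted p under 0.05 in limma and 0 passed the adjusted test, with medians of -0.15, -0.09 and -0.14. Without CT10 1 the neuronal median was -0.06. Cx3cr1, the fractalkine receptor of microglia, was the 1 lower microglial gene of 7, against 3.22% of all genes. It was at -0.56 and was detected on 1 CT12 Veh and 3 CT10 arrays. Neuronal marker levels ranged from 8.35 to 8.62 on the CT12 Veh arrays and from 8.50 to 8.70 on the CT10 arrays. Endothelial and pericyte markers had 2 genes tested, and tanycyte markers 2. Of these, Cldn5 was higher at 0.43 and Vcan lower at -0.76, each at an unadjusted p under 0.05. Cldn5 was detected on 1 CT12 Veh array and 0 CT10 arrays, and Vcan on 0 CT12 Veh arrays and 1 CT10 array. Both therefore rest on signal near background. Of 18 SCN neuropeptide genes, 0 were higher and 1 was lower at an unadjusted p under 0.05, against 3.44% and 3.22% of all genes. The lower gene was Cartpt, not well above background on any CT12 Veh array and detected on 2 CT10 arrays. Avp differed by -0.30 and Vip by -0.15, with a 95% interval of -1.08 to 0.77, and Cck by 1.00 with an interval of -0.02 to 2.02.

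Stress lists differed in how many low p-values they gave, where 6.66% of all genes had an unadjusted p under 0.05. Of 15 heat shock and chaperone genes and 13 glucocorticoid-responsive genes, 0 in either list had an unadjusted p under 0.05 in limma and 0 passed the adjusted test, with medians of 0.03 and 0.09. The highest glucocorticoid-responsive value was Nfkbia, the inhibitor of NF-kappaB, at 0.64. Among 12 hypoxia and glucose-responsive genes, 2 were lower and 0 higher at an unadjusted p under 0.05, against 3.22% and 3.44% of all genes. The lower genes were Txnip, a glucose-responsive arrestin-like protein, at -0.53 on both its probes, and Ldha, lactate dehydrogenase A, at -0.37. Interferon-stimulated genes were negative in 15 of 16, with a median of -0.23 and 0 at an unadjusted p under 0.05. Their mean level was 6.83, 7.67, 7.35 and 7.05 on the CT12 Veh arrays, against 7.43, 7.64, 7.77 and 7.14 on the CT10 arrays, and the groups overlapped. Of 18 genes of the CREB family and cyclic AMP brakes, 1 was higher and 1 lower at an unadjusted p under 0.05. The shares over all genes were 3.44% and 3.22%, so that these counts are near the background. The higher gene was Pde4a, a phosphodiesterase that breaks down cyclic AMP, at 0.61, and the lower was Crtc2, a CREB coactivator. Pde4a was detected on 3 CT12 Veh and 1 CT10 arrays and Crtc2 on 1 CT12 Veh and 2 CT10 arrays, so that both rest on signal near background. The median of that list was 0.04.

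**Figure D5:**
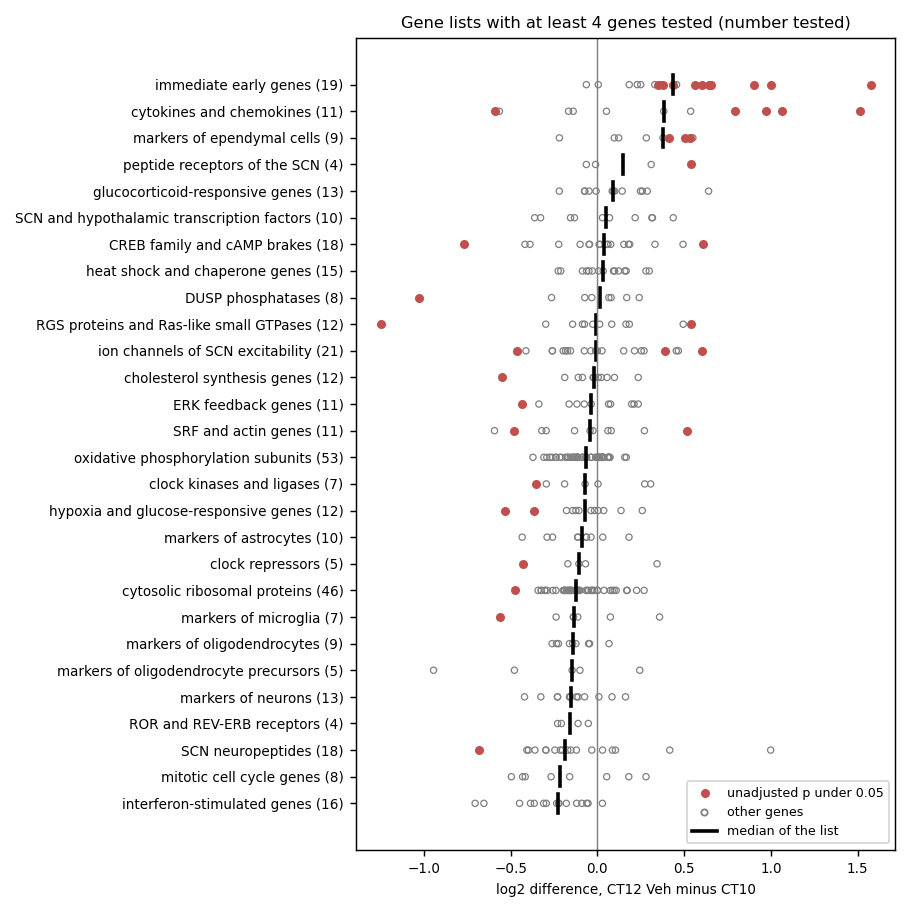
Log2 difference, CT12 Veh minus CT10 (x axis), of every tested gene (circles) in each list with at least 4 genes tested (rows, number tested in brackets), filled where the unadjusted p is under 0.05, with the median as a bar. Immediate early genes (0.43), cytokines and chemokines (0.38) and ependymal markers (0.38) are the lists with medians above 0.3, and interferon-stimulated genes (-0.23) have the lowest.

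Outside the lists, Stx11, a syntaxin of immune cells, had the highest moderated t among genes detected throughout the higher group with no overlap. Its level was 7.11, 7.00, 6.27 and 6.04 on the CT12 Veh arrays, against 5.65, 5.62, 5.44 and 5.28 on the CT10 arrays, where it was not well above background on any array. The measured CT12 Veh mean was 1.28-fold the dimmest well detected signal of the CT10 arrays, a figure that carries no sampling error (adjusted p 0.644 in limma). In the authors' normalised values the difference of Stx11 was 0.31 (SE 0.08, adjusted p 0.51 in limma). Oprl1, the nociceptin receptor, had a level of 9.01, 9.19, 9.30 and 9.13 on the CT12 Veh arrays, against 8.55, 8.86, 7.62 and 8.04 on the CT10 arrays, a difference of 0.89 (adjusted p 0.681), but its other 2 probes gave 0.08 and 0.19. Naaa, a lysosomal amidase of lipid mediators, was at 0.61. On the lower side, Clk2, a kinase of splicing factors, had a level of 6.13, 6.21, 6.26 and 6.05 on the CT12 Veh arrays, against 6.86, 6.84, 6.90 and 7.10 on the CT10 arrays. The groups did not overlap, which was a condition of its selection, at a difference of -0.77 (SE 0.13, unadjusted p 0.0001, adjusted p 0.525 in limma). Clk2 was detected on 3 CT12 Veh and 4 CT10 arrays. Kcnip3, a calcium-binding channel partner and transcriptional repressor, was at -0.77 (adjusted p 0.644) and detected on 1 CT12 Veh and 4 CT10 arrays, and Fgfrl1, an FGF receptor without a kinase domain, was at -0.66 (adjusted p 0.644).

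Agreement between probes of one gene gave a further reading. Of 3334 genes with 2 or more tested probes, 25 (0.75%) had every probe at an unadjusted p under 0.05 in one direction, 14 higher and 11 lower in CT12 Veh. Chosen after their values were seen, the lower genes included Rasl11b, the D-type cyclin genes Ccnd1 and Ccnd2, with Ccnd2 at -0.68 and -0.53, Txnip, Acsbg1, an acyl-CoA synthetase, at -0.56 and -0.72, and the complement gene C4a at -0.46 and -0.66. The higher ones included Adamts1, a secreted metalloprotease, at 0.62 and 0.79, and Cracr2a, a regulator of calcium entry, at 0.79 and 0.87. Adamts1 on the CT12 Veh arrays was 7.43, 8.22, 6.93 and 7.19, against 6.33, 6.80, 7.33 and 6.84 on the CT10 arrays, so that it was highest on CT12 Veh 2 and overlapped between the groups.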

How the data were processed

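Total RNA of each slice was amplified, fragmented and biotinylated, and hybridised to Illumina mouse whole-genome BeadChips (45281 probes). The deposited table holds, per array, a probe intensity as exported by the authors without normalisation and a detection p-value from the scanner software. A second deposited table holds the authors' log2 values, made with lumi (version not given in the sources used here), whose 16 columns share one distribution of values. The study itself filtered on the detection p-value and compared groups in pairs.

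For the 8 arrays, intensities were background-corrected and quantile-normalised with neqc in limma 3.58.1 (R 4.3.3; offset 16), and probes with a detection p under 0.01 on at least 1 array were kept. Group means were compared with limma (moderated test, two-sided) and Benjamini-Hochberg adjustment over all kept probes at 0.05. The same fit was made for CT12 VIP and CT12 Veh arrays. The scripts were tested on simulated data. The number of arrays limits the precision; slide and scan order are not given in the sources used here.

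Probes were named through the platform annotation, brought to current symbols by Entrez ID (13733), accession (1254), symbol (754) or synonym (969), with 23 left under the annotation's own symbol; among tested probes 14286 were named and 2561 were not. A gene is read by its probe of highest mean signal. The members and gene lists were chosen with earlier results of these data known. Named genes are any that passed in a fit, the 12 highest and 12 lowest by moderated t among non-overlapping genes detected on all arrays of the higher group, the clock and immediate early genes, and up to 4 genes with the lowest unadjusted p in each other list. The text gives a selection of these, and 1 result is withheld and not reported here. A few others are named and marked as chosen after their values were seen. Promoters come from RefSeq tables of GRCm38.p6. Alternatives covered normalisation, filtering, array weights, a replicate block, a detection covariate and leaving out each array.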

Additional observations from a re-analysis of the deposited data

Results flagged for a closer look

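Among 162 groups of 4 arrays examined for the named genes, 12 held an array whose gap to its nearest neighbour took up most of the group's range (Dixon's 95% criterion), and chance gives about 1 in 20 such groups. On CT12 Veh 2, Ier5 (7.95) and Pde4a (6.74) stood high. On CT12 Veh 3, Gadd45b stood high (6.68) and Ccn1 low (5.12). Dtnbp1 was low on CT12 Veh 1 (6.59) and Dynlrb2 low on CT12 Veh 4 (8.84). In CT10, Btg2 (8.16) and Gadd45g (10.13) stood high on CT10 4, Arntl (6.63) and Vcan (6.43) high on CT10 5, Egr3 high on CT10 1 (5.04), and Cry2 low on CT10 3 (7.16). Egr3 was not detected on any CT10 array.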

How the results depend on the processing

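The 16 alternatives left the absence of calls in place, except that 1 probe, of Rasl11b, passed with log2 quantile values and 1 with the authors' values; taking unadjusted p-values in place of adjusted ones gives 1130. Without a filter on detection 2834 probes had an unadjusted p under 0.05, of which 45.6% were higher in CT12 Veh, against 50.3% as reported; one fit of all 16 arrays gave 54.8%, and leaving out 1 array at a time 43.0% to 53.9%, lowest without CT12 Veh 2. Replicate numbers 1, 3 and 4 occur in both groups, but deviations of same-numbered arrays correlated at -0.201, 0.134 and -0.024, so the numbers were not taken as pairs. A replicate block in effect drops CT12 Veh 2 and CT10 5 from the comparison, because their numbers occur in a single group. Its results therefore cannot separate pairing from the loss of these arrays. With this block 636 probes had an unadjusted p under 0.05 (40.6% higher). Higher genes numbered 4 immediate early, 1 ependymal and 0 cytokine, against 1.53% of all probes. The cytokine median was -0.0059 and the ependymal median 0.20. Signs turned for Nr1d2 (0.0061), Tef (-0.0229), Jun (-0.0195), Npas4 (0.0602), Btg2 (-0.0049) and Homer1 (-0.0593).

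Leaving out 1 array at a time gave 6 to 13 immediate early genes, 1 to 4 ependymal and 0 to 5 cytokine genes (cytokine median -0.0298 to 0.5482), and 0 to 1 higher clock genes (clock median -0.1301 to -0.0042). In these fits 2.26% to 4.66% of all probes were higher at an unadjusted p under 0.05. One clock gene was higher with log2 quantile values (1), the authors' values (1, median -0.0444), stricter detection (1), no filter (1) and all 16 arrays (1). Cytokine genes numbered 1 with stricter detection and 2 with no filter, and ependymal genes 1 with all 16 arrays. The share of all probes higher was 3.47% with log2 quantile values and 3.38% with the authors' values. It was 3.82% with stricter detection, 2.86% with no filter and 2.7% with all 16 arrays. With the authors' values the medians were 0.22 for immediate early, 0.16 for ependymal and 0.14 for cytokine genes. The neuronal median was -0.06 with the mean of a gene's probes, and the cytokine median 0.05 with stricter detection. Of 1344 values for 81 named genes, 21 turned sign, for 11 genes whose reported difference was at most 0.23 in size; since none passed, staying below the threshold says nothing about stability. Turned signs in leave-one-out fits were within Per2 (-0.2696 to 0.0698), Ciart (-0.2911 to 0.0324), Arntl (-0.043 to 0.2283), Nr1d1 (-0.2225 to 0.0128), Hlf (-0.347 to 0.0433), Npas4 (-0.2076 to 0.0458) and Homer1 (-0.1261 to 0.1305), and Homer1 also turned with a detection covariate (-0.0064) and with the mean of its probes (-0.0537). The causes were not tested. Signal near background limits Per1, Fos, Egr2, Egr3, Gadd45b, Fosb, Maff, Crtc2, Pde4a, Cfap43, Cldn5, Vcan and most chemokines named.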
